A study of Mus musculus with 18 samples.

Results

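The hepatic insulin signalling chain and the leptin receptor were followed through 9 genes, Insr, Irs1, Irs2, Pik3r1, Akt1, Akt2, Foxo1, Foxo3 and Lepr, which were found by their symbols among 19057 lines of a liver RNA-seq table. Livers came from 18 ICR mice aged 10 weeks, male by the study's methods, with 3 mice in each of 6 groups. Con mice were controls on a regular diet, and AOS mice were given alginate oligosaccharide (AOS) at 10 mg/kg with no high-fat diet in their label. HFD mice ate a high-fat diet, and HFD+AOS mice had that diet with AOS at 10 mg/kg. Con-FMT and A10-FMT mice also ate the high-fat diet and were inoculated by mouth with small intestinal microbiota (fecal microbiota transplantation, FMT), from control donors or from donors dosed with AOS at 10 mg/kg. Per the methods, Con and HFD mice received saline, and the microbiota of each donor treatment was pooled before it was given, so that each FMT group represents a single pool. The dosing schedule of the AOS and HFD+AOS mice and the hour at which livers were taken are not given in the sources used here.

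Insulin binds the receptor encoded by Insr, which phosphorylates the adaptor proteins IRS1 and IRS2. These recruit phosphoinositide 3-kinase, whose regulatory subunit p85α is the product of Pik3r1, and the lipid signal it makes activates the kinases AKT1 and AKT2. AKT phosphorylates the transcription factors FOXO1 and FOXO3 and keeps them out of the nucleus, which in fed liver lowers the transcription of genes for glucose production and raises lipid synthesis. Hepatic Irs2 is itself a target of FOXO1 and is known to be transcribed more in fasting than after feeding. Lepr encodes the leptin receptor, which signals mainly in the hypothalamus and is sparse in liver, where leptin acts through JAK2 and the STAT proteins. These steps work largely through phosphorylation, which mRNA levels do not show.

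Values were RPKM (reads scaled to transcript length and to the mapped reads of the library) as deposited, so that levels can be set side by side between genes per length. Fold changes are differences in log2(RPKM + 1), a scale that understates changes of genes with low RPKM. A gene was tested if it reached an RPKM of 1 in at least 3 livers, which 10507 of 17109 genes with any value above 0 did, and 8 of the 9 genes followed here. Groups were compared with limma over all 18 livers, two-sided, with Benjamini-Hochberg adjustment over the 10507 genes, and a gene was called changed at an adjusted p under 0.05. The summed RPKM of a liver lay between 692303 and 806937, and the absolute depth of the libraries is unknown because read numbers were not given with the values. All 8 hepatocyte markers examined were tested, with a summed level of 51701 to 72881 RPKM per liver.

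A pair of livers stood apart from the rest. Where the other 2 livers of the group differed by at least 1 on the log2 scale, the third Con liver lay between them in 98.0% of 148 genes and the third AOS liver in 96.5% of 142 genes, against 8.33% to 76.8% for each of the other 16 livers. Results that rest on these livers are given with and without them. In the first A10-FMT liver the 6 adipocyte markers summed to 29.4 RPKM, with Cfd at 22.05 and Adipoq at 4.42 RPKM, and in the second A10-FMT liver Cfd was at 1.34 and Adipoq at 0.39 RPKM. The sum of the 6 markers was at most 0.53 in each liver of the 5 other groups. The labels name separate samples and no pairing of mice across groups. The p-values set differences against the spread between livers of the same group and treat all livers as independent. The labels do not show this independence, and a liver lying between its group mates can make that spread smaller. With a single pool per FMT group, the p-values also leave out any spread between donor pools.

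FOXO proteins bind DNA at a forkhead core (GTAAACA) and at the related core of the insulin response element (CAAAACA), and the sequences around these letters are shown because some of the genes described next are textbook FOXO targets. Promoter windows of 300 bases, from 250 before to 50 after the transcription start, were taken from RefSeq for GRCm38.p6, the patched release of the mm10 build. They were found for 8 of the 9 genes (14 windows). CAAAACA, on either strand, was in 3 of the 14 windows, in Irs1, Irs2 and Lepr, and in 6.28% of all 32851 windows. GTAAACA was in 1 of the 14, in a window of Akt1, and in 3.65% of all windows. Irs1 held the insulin response element core at 2 places. Each stretch is written from 5′ to 3′ on the strand of its gene, with the core in capitals, and Igfbp1 and G6pc are known FOXO1 targets set beside them.
Irs2, chr8:11008935-11008991, minus strand: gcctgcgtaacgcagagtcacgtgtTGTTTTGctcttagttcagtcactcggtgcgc
Irs1, chr1:82291519-82291575, minus strand: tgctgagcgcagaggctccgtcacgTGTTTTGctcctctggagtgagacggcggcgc
Irs1, chr1:82291440-82291496, minus strand: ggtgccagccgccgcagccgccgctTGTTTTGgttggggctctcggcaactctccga
Lepr, chr4:101717767-101717823, plus strand: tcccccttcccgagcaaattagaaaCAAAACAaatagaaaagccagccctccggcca
Igfbp1, chr11:7197654-7197710, plus strand: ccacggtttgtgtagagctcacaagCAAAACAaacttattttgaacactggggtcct
Akt1, chr12:112675014-112675070, minus strand: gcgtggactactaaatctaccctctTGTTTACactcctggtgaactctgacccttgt
G6pc, chr11:101367517-101367573, plus strand: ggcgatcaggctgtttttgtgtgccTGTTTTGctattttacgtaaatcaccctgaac
The Akt1 stretch holds the forkhead core, as TGTTTAC, and the others hold the insulin response element core. In the Irs2 and Irs1 windows the latter was read as TGTTTTG, 37 bases before the start in Irs2 and 111 and 32 bases before it in Irs1. In Igfbp1 it lay 108 bases before the start as CAAAACA. Starts are those of RefSeq, and they can differ from the GENCODE gene places given below. The Irs2 stretch begins at 11008935, whereas the GENCODE place of Irs2 ends at 11008458. The Lepr stretch lies inside the GENCODE place of Lepr, which begins at 101717404. These matches are a description of the letters, and binding was not measured.

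Across the 18 livers the genes spanned a wide range of levels. Akt2 was the most abundant, at a mean of 34.4 RPKM, above 90.3% of the genes with any value. Akt1 (19.4 RPKM), Insr (11.5 RPKM) and Pik3r1 (9.86 RPKM) followed. Foxo1 and Foxo3 had means of 6.15 and 5.89 RPKM. The adaptors were lower, at 2.90 RPKM for Irs1 and 2.63 RPKM for Irs2, and Lepr had a mean of 0.242 RPKM. The genes also differed in how much they varied, from a coefficient of variation of 5.03% for Akt2 to 55.1% for Irs2 among those tested. Reads of related genes (Akt1 and Akt2, Irs1 and Irs2, Foxo1 and Foxo3) could have counted for more than 1 of them, because the alignment settings in the methods report every hit of a read.

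**Figure D1:**
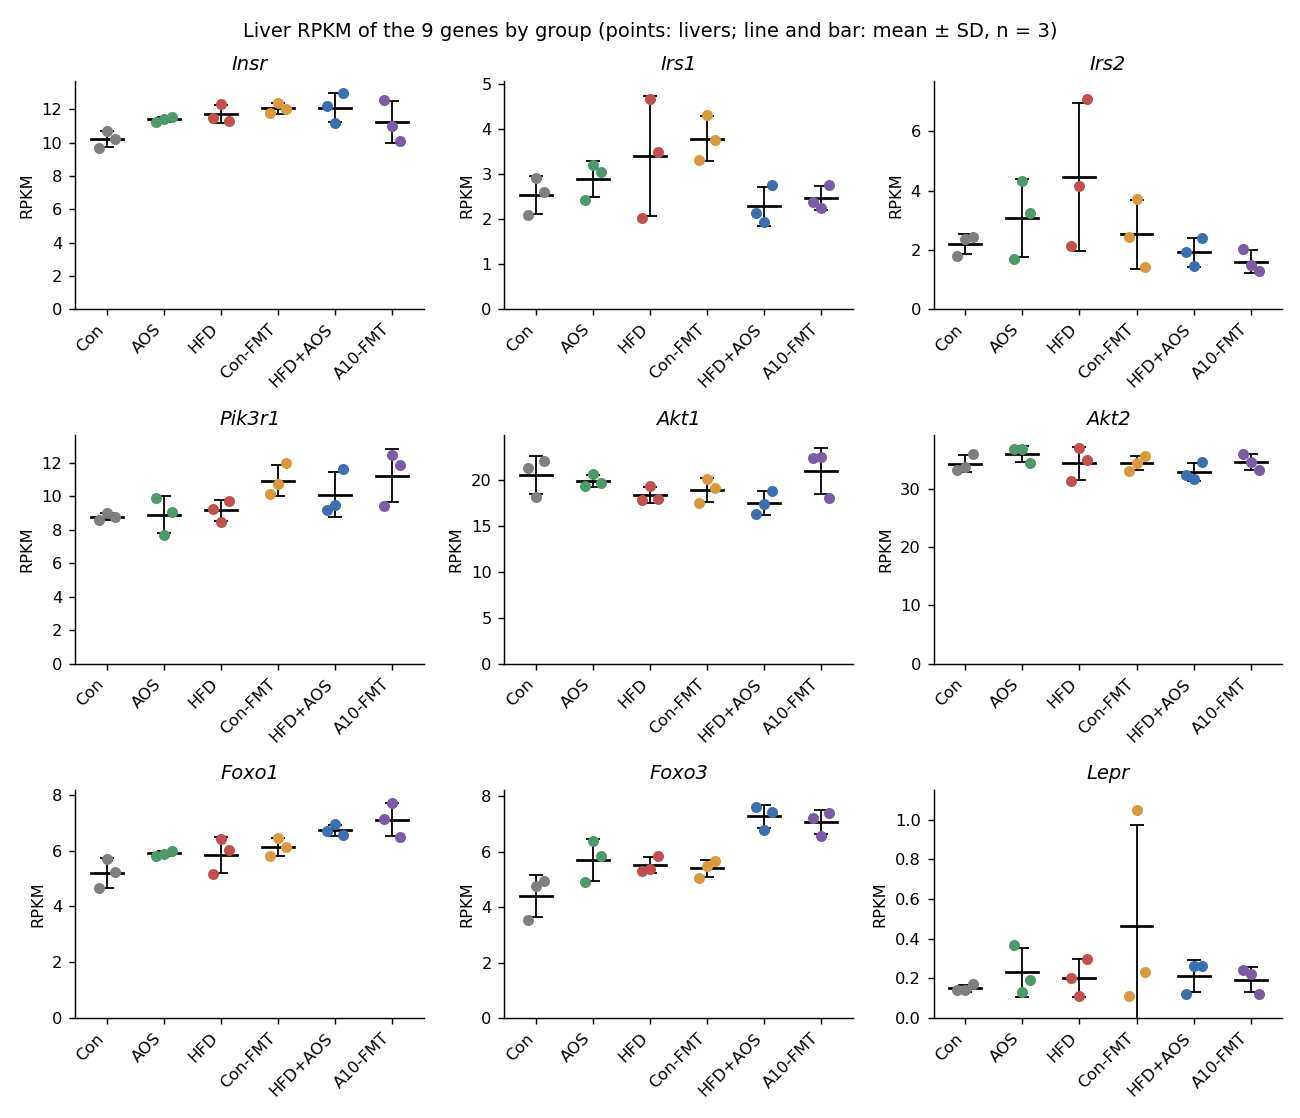
RPKM of the 9 genes in each of the 18 livers by group, with 1 point per liver and the mean ± SD of each group (n = 3); every axis starts at 0, and the SD bar of Lepr in Con-FMT is cut there. The Foxo3 levels of the 3 HFD+AOS and 3 A10-FMT livers, from 6.57 to 7.59 RPKM, lie above those of all other livers, while Irs2 ranges from 2.13 to 7.11 RPKM among the HFD livers alone.

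The receptor gene Insr (chr8:3122061-3279617, minus strand) varied little. Its RPKM in livers 1, 2 and 3 was 9.71, 10.72 and 10.23 in Con, 11.26, 11.42 and 11.52 in AOS, and 11.48, 12.33 and 11.32 in HFD. It was 12.21, 11.17 and 12.96 in HFD+AOS, 11.76, 12.41 and 12.02 in Con-FMT, and 12.58, 11.01 and 10.11 in A10-FMT. The 3 Con livers were below every AOS, HFD, HFD+AOS and Con-FMT liver, but overlapped with A10-FMT. The share of all genes with such a gap was not computed for these pairs. It was 23.4% in A10-FMT against HFD and 27.2% in HFD+AOS against HFD. The largest difference between any pair of groups was HFD+AOS over Con, with a log2 fold change of 0.22 ± 0.076 (SE) and an adjusted p of 0.0560, so that none of the 15 pairs passed the test.

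Among the 8 tested genes the adaptor genes spread most. Irs1 (chr1:82233101-82291416, minus strand) was at 2.09, 2.92 and 2.60 RPKM in Con, 2.43, 3.20 and 3.05 in AOS, and 2.03, 4.68 and 3.50 in HFD. In HFD+AOS it was at 2.14, 1.94 and 2.77, in Con-FMT at 3.31, 4.31 and 3.75, and in A10-FMT at 2.38, 2.25 and 2.76 RPKM. The 3 Con-FMT livers were above all HFD+AOS and A10-FMT livers, whereas the first HFD liver lay among the latter. For these pairs the share of all genes with such a gap was not computed. Irs2 (chr8:10984681-11008458, minus strand) was at 1.81, 2.37 and 2.44 RPKM in Con, 1.69, 4.31 and 3.24 in AOS, and 2.13, 4.17 and 7.11 in HFD. It was at 1.92, 1.44 and 2.41 in HFD+AOS, 2.43, 3.73 and 1.41 in Con-FMT, and 2.03, 1.48 and 1.28 RPKM in A10-FMT. All 3 A10-FMT livers were below all 3 HFD livers in Irs2, a pair of groups in which 23.4% of all genes did not overlap. The third HFD liver was the highest of all 18 in Irs2. For neither adaptor gene did any of the 15 pairs of groups pass the test.

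Among the kinase genes, Pik3r1 (chr13:101680563-101768217, minus strand) was at 8.58, 9.03 and 8.76 RPKM in Con, 9.90, 7.71 and 9.08 in AOS, and 9.27, 8.47 and 9.74 in HFD. It was at 9.19, 9.51 and 11.62 in HFD+AOS, 10.14, 10.72 and 11.98 in Con-FMT, and 9.42, 12.46 and 11.86 in A10-FMT, and its 6 values above 10 RPKM were all in high-fat livers. Akt1 (chr12:112653821-112674884, minus strand) had group means from 17.5 ± 1.29 RPKM (SD, n = 3) in HFD+AOS to 21.0 ± 2.53 in A10-FMT. Akt2 (chr7:27591552-27640826, plus strand), the main AKT form of insulin-responsive tissues, had means from 32.9 ± 1.58 in HFD+AOS to 36.0 ± 1.33 in AOS. The lowest and the highest liver differed 1.39 times in Akt1 and 1.18 times in Akt2. None of the 15 pairs of groups passed the test for Pik3r1, Akt1 or Akt2, and the smallest adjusted p were 0.0763, 0.131 and 0.333.

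Both FOXO genes were highest in HFD+AOS and A10-FMT livers. Foxo3 (chr10:42181841-42276755, minus strand) was at 3.54, 4.76 and 4.93 RPKM in Con, 4.89, 6.39 and 5.83 in AOS, 5.29, 5.38 and 5.83 in HFD, and 5.05, 5.47 and 5.66 in Con-FMT. It reached 7.59, 6.79 and 7.43 in HFD+AOS and 7.20, 6.57 and 7.39 in A10-FMT, above every liver of the 4 other groups. Foxo1 (chr3:52268336-52353221, plus strand), the main FOXO of hepatic glucose production, was at 4.65, 5.71 and 5.22 RPKM in Con, 5.82, 5.88 and 6.0 in AOS, 5.15, 6.41 and 6.01 in HFD, and 5.81, 6.44 and 6.12 in Con-FMT. It was at 6.72, 6.94 and 6.55 in HFD+AOS and 7.14, 7.69 and 6.50 in A10-FMT, again above every liver of the other groups. How many of all genes had such a gap was not computed. Foxo3 passed the test in 3 of 15 pairs of groups and Foxo1 in 2. Both passed in HFD+AOS and A10-FMT against Con, where 10.8% and 7.49% of all genes were called higher. Foxo3 also passed in HFD+AOS against HFD, where 8.75% of all genes were called.

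The leptin receptor gene Lepr (chr4:101717404-101815352, plus strand) was the only one of the 9 below the filter. It was at 0.14, 0.14 and 0.17 RPKM in Con, 0.37, 0.13 and 0.19 in AOS, 0.20, 0.11 and 0.30 in HFD, 0.12, 0.26 and 0.26 in HFD+AOS, and 0.24, 0.22 and 0.12 in A10-FMT. In Con-FMT it was at 0.11, 1.05 and 0.23 RPKM, and the second Con-FMT liver was the only one above 1. The groups overlapped, and with the filter on low values dropped the largest difference from HFD was 0.23 ± 0.16 (SE) in Con-FMT (adjusted p = 0.865, limma), the group of that liver. Leprot, which lies upstream of Lepr on the same chromosome and shares 0 exon bases with it in the annotation, was at 4.71 to 7.33 RPKM in all 18 livers. Its highest value was in the first A10-FMT liver, the one with the highest adipocyte markers, where Lepr was at 0.24 RPKM and the leptin gene Lep at 0.23. Leprot was at 7.16 RPKM in the third AOS and 6.98 RPKM in the third HFD+AOS liver, where adipocyte markers summed to at most 0.53 RPKM. In the second A10-FMT liver it was at 5.95 RPKM.

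In the order of group means, Con was lowest for Insr, Foxo1, Foxo3 and Pik3r1. Neighbours in this order did not pass the test for any of the 8 genes tested. The smallest unadjusted p between neighbours was 0.0170 for Foxo3 in A10-FMT over AOS (adjusted p = 0.126), followed by 0.0252 for Foxo3 in Con-FMT over Con (adjusted p = 0.166). Levels in bulk liver cannot tell fewer cells of a type from less RNA per cell.

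The high-fat diet alone was compared with the regular diet in HFD against Con, in which 0.381% of all genes tested were called. In limma, 1623 of all 10507 genes tested had an unadjusted p under 0.05. Of the 8 genes here 0 were called, while 3 had an unadjusted p under 0.05. These were Foxo3, at 0.27 ± 0.10 (log2 fold change ± SE, adjusted p = 0.216), Insr at 0.18 ± 0.076 (adjusted p = 0.269) and Irs2 at 0.67 ± 0.31 (adjusted p = 0.312). The Irs2 difference was 1.02 without the first HFD liver and 0.33 without the third. The median difference of the 8 genes was 0.16, against 0.049 over all genes tested. AOS on the regular diet (AOS against Con) likewise called 0 of the 8, with 0.133% of all genes called and 1 of the 8, Foxo3 at 0.31 ± 0.10, below an unadjusted p of 0.05 (adjusted p = 0.171). Over all genes tested, 1633 were below that unadjusted p in limma. Leaving out the third Con and AOS livers gave a Foxo3 adjusted p of 0.399 for HFD and 0.522 for AOS.

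The transplants and AOS on the high-fat diet were each compared with the same 3 HFD livers, so these comparisons share their controls and are not independent. Con-FMT against HFD called 0 of the 8 genes and 0.00952% of all genes. In limma, 0 of the 8 had an unadjusted p under 0.05, against 697 of all 10507 genes. A10-FMT against HFD called 6.60% of all genes, and 2571 of the 10507 had an unadjusted p under 0.05 in limma. It called 0 of the 8, 4 of which had an unadjusted p under 0.05. The nearest were Irs2 at -0.98 ± 0.31, where mean RPKM was 0.357 of that in HFD (adjusted p = 0.0648), Foxo3 at 0.31 ± 0.10 (adjusted p = 0.0731) and Foxo1 at 0.24 ± 0.082 (adjusted p = 0.0792), all with groups that did not overlap. That was 3 of the 8, where 23.4% of all genes did not overlap. With library medians set equal, Foxo1 and Foxo3 were called (adjusted p = 0.0285 and 0.0307). Over 12 refits at the same threshold, Foxo1 was called in 2 and Foxo3 in 1. Without the third Con and AOS livers their adjusted p in limma were 0.132 and 0.103. The highest over the 12 refits were 0.279 and 0.193.

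HFD+AOS against HFD called 8.75% of all genes and 1 of the 8. Foxo3 rose by 0.35 ± 0.10 (95% interval 0.13 to 0.56, adjusted p = 0.0445), a mean RPKM 1.32 times that of HFD. This call was held in 3 of 12 refits at the same threshold and not at the cut-offs of the study, and its adjusted p was 0.0669 without the third Con and AOS livers and at most 0.145, without the first HFD+AOS liver. Foxo1 and Foxo3 were the 2 genes of the 8 whose livers did not overlap, against 27.2% of all genes. Irs2 was at -0.81 ± 0.31 (adjusted p = 0.110) and Irs1 at -0.38 ± 0.18 (adjusted p = 0.179).

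Both adaptor results depended on single HFD livers. Without the first HFD liver, the lowest in both genes, Irs2 and Irs1 were called lower in A10-FMT (adjusted p = 0.0135 and 0.0292) and in HFD+AOS (0.0225 and 0.0146). Without the third HFD liver, the highest in Irs2, the Irs2 difference was -0.64 in A10-FMT (adjusted p = 0.260) and -0.47 in HFD+AOS (adjusted p = 0.401).

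A10-FMT against Con-FMT, the contrast of donors, called 1.68% of all genes, and 1727 of 10507 were below an unadjusted p of 0.05 in limma. It called 0 of the 8, with 3 of the 8 below that unadjusted p. These were Foxo3 at 0.33 ± 0.10 (adjusted p = 0.116), Irs1 at -0.47 ± 0.18 (adjusted p = 0.200) and Foxo1 at 0.19 ± 0.082 (adjusted p = 0.270). The effect of AOS on the high-fat diet minus its effect on the regular diet called 0.504% of all genes and 0 of the 8. Of all genes tested, 1541 were below an unadjusted p of 0.05 in limma. Of the 8, only Irs2 was below it, at -1.11 ± 0.44 (adjusted p = 0.254), and Foxo3 was at 0.034 ± 0.14 (95% interval -0.27 to 0.34).

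**Figure D2:**
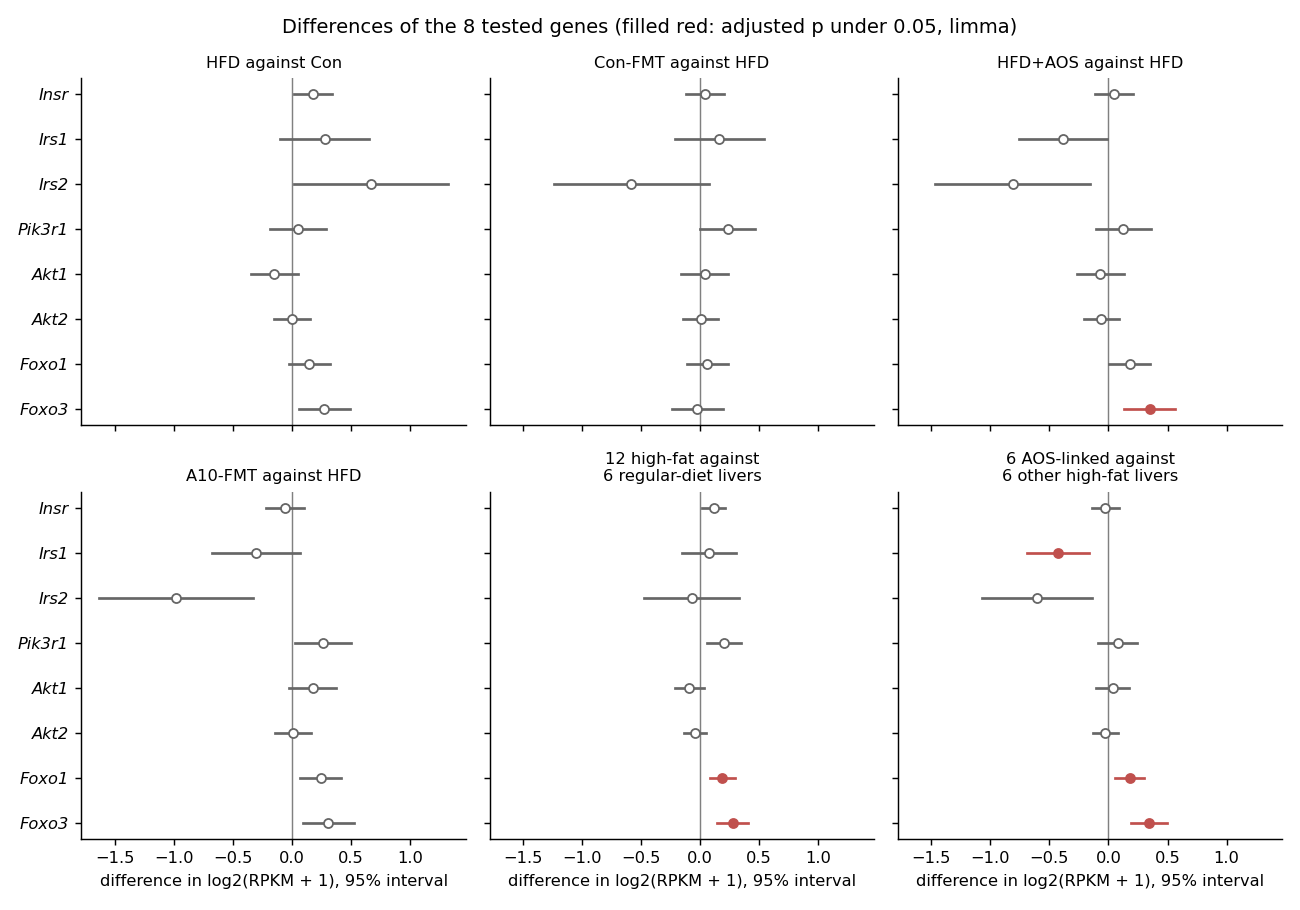
Differences in log2(RPKM + 1) of the 8 tested genes in 6 comparisons, as points with 95% intervals from limma over 18 livers; filled red points have an adjusted p under 0.05. Foxo3 is called in HFD+AOS against HFD, in the 12 high-fat against the 6 regular-diet livers and in the 6 AOS-linked against the 6 other high-fat livers, and the intervals of Irs2 are the widest.

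Taking the 12 high-fat livers together against the 6 regular-diet livers, 12.9% of all genes were called and 2 of the 8. Foxo3 was higher by 0.28 ± 0.062 (adjusted p = 0.00822), with medians of 6.20 RPKM (5.05 to 7.59) on the high-fat and 4.91 RPKM (3.54 to 6.39) on the regular diet. Foxo1 was higher by 0.19 ± 0.050 (adjusted p = 0.0227), with medians of 6.47 (5.15 to 7.69) and 5.77 RPKM (4.65 to 6.0). The livers of both diets overlapped in both genes. The 12 high-fat livers include the HFD+AOS and A10-FMT livers. In HFD and Con-FMT, Foxo3 was at 0.27 and 0.25 against Con and at -0.039 and -0.063 against AOS. Foxo1 was at 0.15 and 0.20 against Con and at -0.013 and 0.045 against AOS. None of these differences was called in limma (adjusted p from 0.162 to 0.966). Of 23 refits of the 12 against the 6 livers at the same threshold, Foxo3 was called in 23 and Foxo1 in 19, and neither was called at the cut-offs of the study. Without the third Con and AOS livers, Foxo3 was at 0.32 (adjusted p = 0.0260) and Foxo1 at 0.19 (adjusted p = 0.0979), and the Foxo1 call was also lost without the first Con, the third Con or the second AOS liver. Pik3r1, at 0.20 ± 0.067, had an adjusted p of 0.0600 and was called in 3 of 23 refits at the same threshold. Its adjusted p in limma was 0.0479 with library medians set equal and 0.0232 without the first A10-FMT liver. Without the third Con and AOS livers it was 0.183. Of 8 Kupffer cell and macrophage markers, 6 passed the test in the same comparison. The summed level of the 8 ran from 48.1 to 70.9 RPKM in regular-diet livers and from 29.9 to 68.8 RPKM in high-fat livers. Of 8 markers each, Apoa1 and Fgb of hepatocytes, Stab2 of endothelial cells, and Reln and Col3a1 of stellate cells and fibroblasts also passed. The part of these cells in the FOXO results was not tested.

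Against Con alone, Foxo3 and Foxo1 were called in HFD+AOS and in A10-FMT, in which 10.8% and 7.49% of all genes were called higher. Foxo3 was 1.65 times the Con mean in HFD+AOS (0.62 ± 0.10, adjusted p = 0.000850) and 1.60 times in A10-FMT (0.58 ± 0.10, adjusted p = 0.00180). Foxo1 was 1.30 times the Con mean in HFD+AOS (0.32 ± 0.082, adjusted p = 0.0137) and 1.37 times in A10-FMT (0.39 ± 0.082, adjusted p = 0.00586). These share the Con livers. Without the third Con and AOS livers, Foxo3 had an adjusted p of 0.00363 and 0.00603, and Foxo1 of 0.0591 and 0.0362. Foxo1 in HFD+AOS also lost its call without the first Con liver (adjusted p = 0.0727).

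HFD+AOS and A10-FMT, the groups that received AOS or microbiota of AOS-dosed donors, are called AOS-linked here and were set as 6 livers against the 6 HFD and Con-FMT livers on the same diet. This called 15.4% of all genes and 3 of the 8. Foxo3 was higher by 0.34 ± 0.071 (95% interval 0.19 to 0.49, adjusted p = 0.00585), with a median of 7.30 RPKM (6.57 to 7.59) against 5.43 RPKM (5.05 to 5.83). Foxo1 was higher by 0.18 ± 0.058 (adjusted p = 0.0447), with a median of 6.83 RPKM (6.50 to 7.69) against 6.07 RPKM (5.15 to 6.44). Irs1 was lower by a log2 fold change of -0.43 ± 0.12 (adjusted p = 0.0324), with a median of 2.32 RPKM (1.94 to 2.77) against 3.63 RPKM (2.03 to 4.68). Livers did not overlap in Foxo1 and Foxo3, where 4.84% of all genes did not overlap. In Irs1 they overlapped through the first HFD liver.

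The Foxo3 call was held in 18 of 18 refits at the same threshold, at an adjusted p of 0.00193 to 0.0180, but not at the cut-offs of the study, which ask for a log2 fold change of at least 1 in size. That of Irs1 was held in 7 of these refits, with an adjusted p of up to 0.0818 without the second Con-FMT liver, and that of Foxo1 in 5, with up to 0.110 without the second A10-FMT liver. Over the 16 remaining livers, with neither the third Con nor the third AOS liver, the adjusted p were 0.0106 for Foxo3, 0.0570 for Irs1 and 0.0769 for Foxo1. Irs2 was at -0.60 ± 0.22 (adjusted p = 0.0703), with a median of 1.70 RPKM (1.28 to 2.41) against 3.08 RPKM (1.41 to 7.11). Insr, Pik3r1, Akt1 and Akt2 lay between -0.028 and 0.077, with 95% intervals that ran from -0.14 at the lowest to 0.24 at the highest. The calls of all genes were 648 higher and 965 lower, and 1077 higher and 945 lower with library medians set equal, while the 3 genes kept their directions.

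The rest of the pathway was described through lists chosen with earlier results of these data in view, so their counts are set against the 15.4% background without a test. Of 16 genes of the insulin receptor and its adaptors, 11 were tested, and 1 of these, Irs1, was called in AOS-linked against other high-fat livers (median -0.035, against -0.015 over all genes). Without the first HFD liver 3 genes of this list were lower. Of 29 tested genes of the PI3K, AKT and mTOR chain, 2 were higher, Foxo1 and Foxo3, and 3 were lower (median -0.034). The lower genes were Pik3ca, the catalytic subunit p110α, at -0.14 ± 0.043 (adjusted p = 0.0399, held in 7 of 18 refits at the same threshold), Pik3c2a at -0.34 ± 0.072 (adjusted p = 0.00663) and Prkci, an atypical protein kinase C, at -0.34 ± 0.078 (adjusted p = 0.0109). Without the third A10-FMT liver 6 genes of this chain were lower. The other 24 genes of the chain that were tested did not pass.

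Of 23 tested genes that restrain insulin signalling, 4 were higher and 1 was lower in AOS-linked livers (median 0.054). Trib3, a pseudokinase that binds AKT, was higher by 1.13 ± 0.25 (adjusted p = 0.00789), at 6.76, 8.94 and 10.92 RPKM in HFD+AOS and 13.11, 3.25 and 4.82 in A10-FMT, against 1.34 to 4.37 RPKM in the 6 other high-fat livers. The adaptor gene Sh2b3 was higher by 0.37 ± 0.066 (adjusted p = 0.00191), Inpp5k, which removes a phosphate from the lipid signal, by 0.25 ± 0.067, and Ikbkb by 0.15 ± 0.043 (adjusted p = 0.0235 and 0.0291). Ddit4, an inhibitor of mTORC1, was lower, with a log2 fold change of -0.67 ± 0.13 (adjusted p = 0.00353). Without the first HFD+AOS liver only 2 of these were higher.

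Of 29 tested FOXO and fasting targets, 6 were higher and 7 were lower in AOS-linked livers (median -0.031). Over 16 livers these counts were 4 and 5, and without the low-value filter 4 genes were lower. The cell cycle inhibitor Cdkn1a was lower by the largest amount, -2.60 ± 0.20 (adjusted p = 1.10e-06), at 0.91, 0.51 and 0.73 RPKM in HFD+AOS and 0.41, 0.27 and 2.18 in A10-FMT. It was at 11.99, 11.81 and 16.47 RPKM in HFD and 6.18, 9.49 and 5.38 in Con-FMT, with no overlap. G6pc, the last enzyme of glucose release, was lower (-1.21 ± 0.25, adjusted p = 0.00479), at 59.55 to 184.69 RPKM against 148.89 to 385.65, and so was Igfbp1 (-1.56 ± 0.43, adjusted p = 0.0255). Igfbp1 spread in HFD as Irs2 did, at 11.18, 42.18 and 138.83 RPKM, and its adjusted p reached 0.0702 without the second Con-FMT liver. Both promoters hold the insulin response element core printed above. The core was not looked up in the promoters of the other genes of this list, so it cannot be set against the direction of change.

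Pdk4, which shuts down glucose oxidation in fasting, was lower as well (-0.84 ± 0.16, adjusted p = 0.00359), together with Ccng2, Mttp and Trp53inp1. Among the higher genes, Gadd45a, a stress-response gene, was at 8.24, 7.75 and 7.79 RPKM in HFD+AOS, 5.31, 4.12 and 3.60 in A10-FMT and 1.53 to 2.92 in the 6 other high-fat livers (1.15 ± 0.11, adjusted p = 6.07e-06). Cpt1a, the entry step of fatty acids into mitochondria, was higher by 0.36 ± 0.089 (adjusted p = 0.0148), and Bnip3, Txnip, Apoc3 and Gabarapl1 were also called. Pck1, a further gluconeogenic gene, was at 0.12 ± 0.16 and not called.

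**Figure D3:**
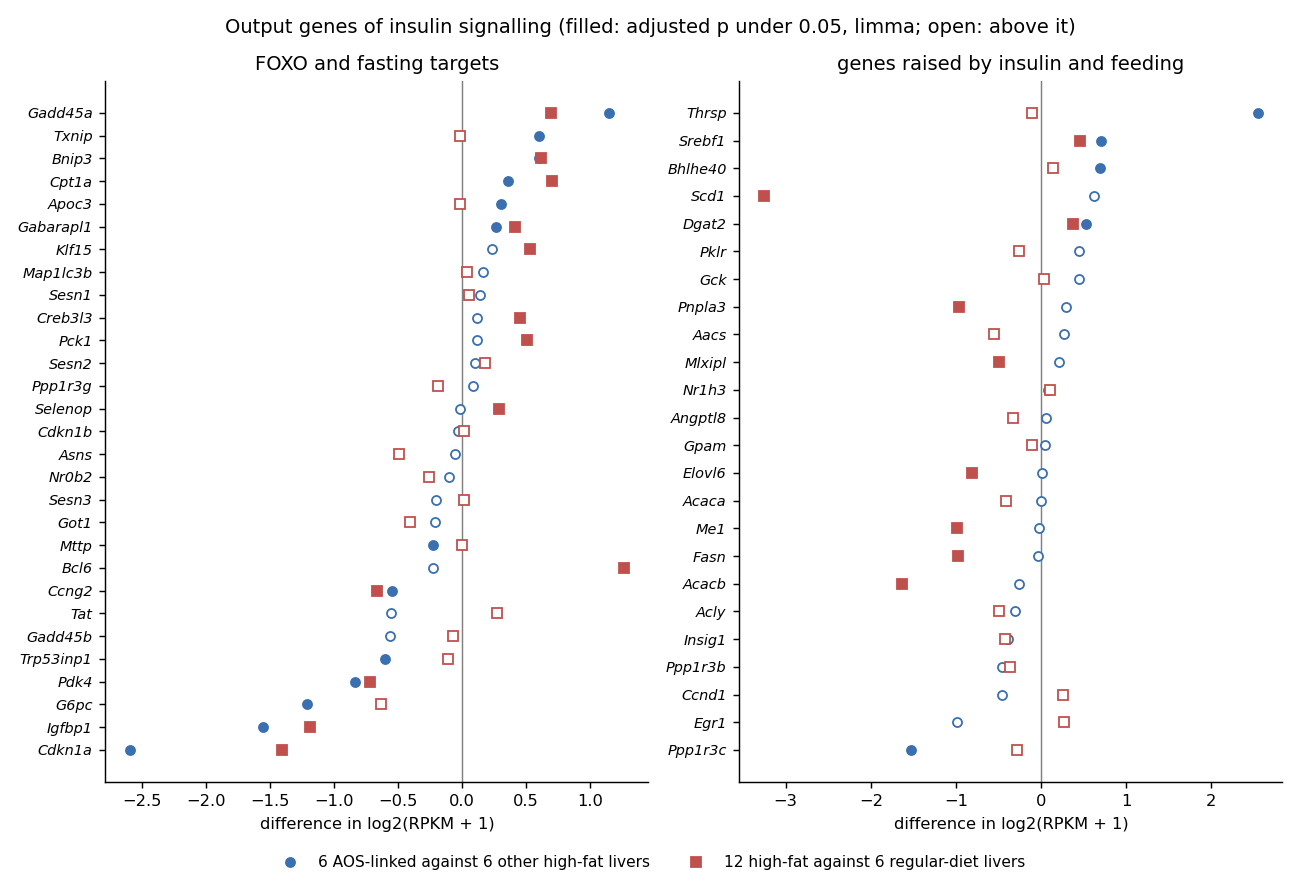
Differences in log2(RPKM + 1) of the FOXO and fasting targets (left) and of the genes raised by insulin and feeding (right), for the 6 AOS-linked against the 6 other high-fat livers (blue circles) and the 12 high-fat against the 6 regular-diet livers (red squares); filled symbols have an adjusted p under 0.05 in limma over 18 livers. Cdkn1a and Igfbp1 are lower and Gadd45a is higher in both comparisons, which share the 6 AOS-linked livers, and Cdkn1a (0.16) and Igfbp1 (0.92) are not lower in HFD against Con, while Thrsp is called higher in the first and Scd1 lower in the second.

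Of 24 tested genes raised by insulin and feeding, 4 were higher and 1 was lower in AOS-linked livers (median 0.053). Thrsp, a regulator of lipogenesis, was at 268.8 to 695.17 RPKM against 33.54 to 121.12 in the other high-fat livers (2.55 ± 0.35, adjusted p = 0.000256). Srebf1, the transcription factor through which insulin raises lipogenic genes, was higher by 0.71 ± 0.14 (adjusted p = 0.00443), and Dgat2, which completes triglyceride synthesis, by 0.53 ± 0.087 (adjusted p = 0.00109). Bhlhe40 was also higher, and Ppp1r3c, a glycogen-targeting subunit, was lower (-1.53 ± 0.15, adjusted p = 1.06e-05), as the only lower gene with all livers and 1 of 2 without the first HFD liver. The enzymes below SREBP-1c did not pass, with Fasn at -0.031 ± 0.30 and Scd1 at 0.62 ± 0.67. Between diets, 7 of the 24 were lower and 2 higher in the 12 high-fat livers (median -0.35, against 0.0051 over all genes, of which 12.9% were called). Scd1, at 676.24 to 2033.32 RPKM in regular-diet and 19.25 to 537.76 RPKM in high-fat livers, was lower (-3.26 ± 0.58, adjusted p = 0.00188), with Fasn, Elovl6, Me1, Pnpla3, Acacb and Mlxipl. Without the third Con and AOS livers 5 of these were lower and 1 was higher.

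The FOXO and fasting targets had 9 of 29 genes higher and 4 lower between diets (median 0.014), where 12.9% of all genes were called, and 7 and 3 without the third Con and AOS livers. Cpt1a (0.70 ± 0.077, adjusted p = 4.42e-05), Bcl6 (1.26 ± 0.22, adjusted p = 0.00175) and Pck1 (0.51 ± 0.14, adjusted p = 0.0297) were among the higher, and Cdkn1a, Igfbp1, Pdk4 and Ccng2 were the lower. The 12 high-fat livers include the 6 AOS-linked ones, and in HFD against Con alone none of these 4 passed, with differences of 0.16 for Cdkn1a, 0.92 for Igfbp1, 0.28 for Pdk4 and -0.069 for Ccng2.

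On the leptin side, 18 of 21 genes of the receptor pathway were tested, and in AOS-linked livers 1 was higher and 4 were lower (median -0.058). Stat5b, a transducer of growth hormone and leptin receptors, was at 10.30, 10.81 and 12.06 RPKM in HFD+AOS and 9.22, 8.57 and 9.88 in A10-FMT, against 15.64, 14.51 and 15.39 in HFD and 14.51, 15.33 and 11.69 in Con-FMT. The groups overlapped only through the third Con-FMT liver, and the difference was -0.48 ± 0.063 (adjusted p = 0.000186). Stat5a (-0.46 ± 0.098, adjusted p = 0.00634), Il6st, the shared receptor chain gp130 (-0.26 ± 0.050, adjusted p = 0.00335), and Stat3 (-0.32 ± 0.089, adjusted p = 0.0249) were lower, and Pias3, an inhibitor of STAT3, was higher (0.25 ± 0.073, adjusted p = 0.0312). Lepr itself was below the filter, and with the filter dropped it was at -0.11 ± 0.11 (adjusted p = 0.613, limma). Jak2, Socs3 and Cish did not pass.

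Clock genes moved with the same groups. In AOS-linked against other high-fat livers, 10 of 11 clock repressors and outputs were higher, with Cry1 lower, and 4 of 5 genes of the opposite phase, Arntl, Clock, Npas2 and Nfil3, were lower. Dbp was at 111.84, 88.90 and 97.76 RPKM in HFD+AOS and 126.90, 70.84 and 49.17 in A10-FMT. It was at 0.27 to 0.59 RPKM in HFD, 3.24 to 22.57 in Con-FMT and 0.36 to 3.41 in the regular-diet livers. Arntl was at 0.69 to 2.41 RPKM in AOS-linked livers and 6.94 to 14.64 in all others. Some cell type markers were called in this comparison, where 15.4% of all genes were called. Of the 8 hepatocyte markers tested, Apob (292.44 to 342.50 RPKM in AOS-linked against 362.21 to 466.27 in other high-fat livers) and Fgb were called. Sox9 (0.76 to 1.33 against 1.09 to 3.56 RPKM) was called of 3 cholangiocyte markers tested. Of 8 stellate cell and fibroblast markers, Col3a1 (5.13 to 10.89 against 4.16 to 6.38 RPKM) was called. None of the tested Kupffer cell and macrophage, liver endothelial cell, lymphocyte or red cell markers was called here. The part of these cells and of the phase of the clock in the results on Foxo1, Foxo3, Irs1, Irs2 and their target lists was not tested.

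Of the 28 pairs of the 8 tested genes, 1 was correlated over the 16 livers without the third Con and AOS livers. Foxo1 and Foxo3 had a Pearson r of 0.80 (permutation p = 0.000240, adjusted p = 0.00672) and a Spearman rho of 0.84 (permutation p = 7.00e-05, adjusted p = 0.00196), with r = 0.72 after the 2 livers farthest from the Foxo1 median were left out. Within groups the relation was not shown, since the deviations from the group means had an r of 0.30 (permutation p = 0.599). Irs1 and Irs2 had an r of 0.61 and a rho of 0.54 (permutation p = 0.0109 and 0.0315, adjusted p = 0.152 and 0.220), and the r was 0.49 without the 2 livers farthest from the Irs1 median. Akt1 and Akt2 had an r of 0.55 and a rho of 0.64 (permutation p = 0.0270 and 0.00916, adjusted p = 0.189 and 0.128), and an r of 0.73 with library medians set equal (permutation adjusted p = 0.0171).

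**Figure D4:**
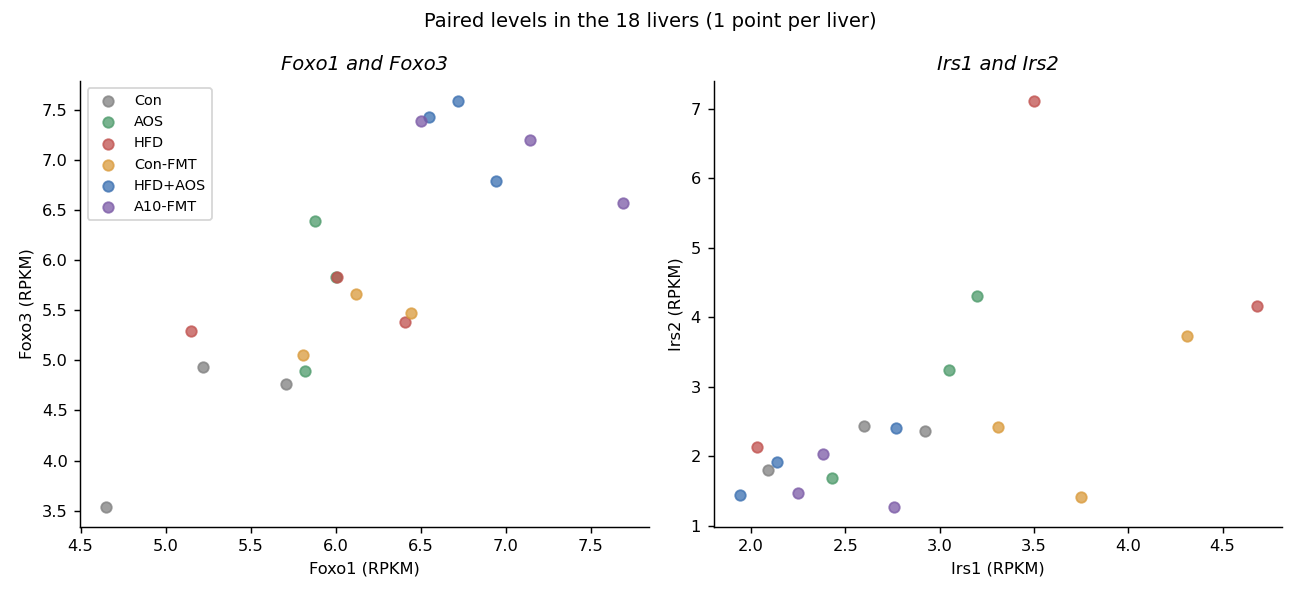
Foxo3 against Foxo1 (left) and Irs2 against Irs1 (right) in RPKM, 1 point per liver, coloured by group over all 18 livers. The 6 AOS-linked livers form the upper right of the Foxo1 and Foxo3 plot, the third AOS and the third HFD livers fall on nearly the same point, and the Irs1 and Irs2 plot is spread by single HFD livers.

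Among all tested genes, some of those most like each of the 8 over the 16 livers are given as a description. Among these, Lpin2 was like Foxo3 (r = 0.89) and Stard5 like Foxo1 (0.90). Irs2 was most like Elavl1 (0.88) and Zfx (0.86), and Irs1 like Alg8 and Mrps22 (both 0.90). Insr was most like Chtop (0.89) and Prrc2b (0.88). For Akt2 these were H13 (0.87) and Rpl7 (0.86), for Akt1 Cabyr (0.83) and S100a9 (0.79), and for Pik3r1 Kcnk5 (0.83) and Ubl4a (0.82). Of the genes followed here, none was among the 2 most like another.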

How the data were processed

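Liver RNA was sequenced from 18 mice, and the authors deposited a table of RPKM values per gene symbol and liver, rounded to 2 decimals. The methods name SOAPaligner, with every hit of a read reported, while the submitters' processing notes name Bowtie 0.12.2 and mm10. The annotation and the strandedness are not given in the sources used here. DEGseq, named in the methods, needs read numbers and was not run. Columns were matched to livers by their abbreviations and replicate numbers.

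Values were taken as log2(RPKM + 1) where 3 or more livers reached an RPKM of 1. Then a mean for each of 6 groups was fitted over 18 livers by the linear models of limma 3.58.1 (R 4.3.3), variances were moderated along the mean level, and two-sided p-values were adjusted within each comparison by Benjamini and Hochberg. Pairs of genes were compared over 16 livers with 100000 permutations in numpy 2.4.6 under Python 3.11.15. Gene places are from GENCODE M21 and promoters from RefSeq, both for GRCm38. The fit was also run on simulated data with independent livers and changes larger than those of Foxo1, Foxo3 and Irs1. That run does not show how well changes of their size are found.

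The genes, the 8 pathway lists, the 9 marker lists and the pooled comparisons were chosen with earlier results of these data known. Genes named are the 9 genes, up to 3 per list with the smallest unadjusted p in 3 comparisons, the 2 most like each gene (2 of these are not reported here), and list genes that were called; Pck1, Fasn, Scd1, Jak2, Socs3 and Cish where not called, Leprot, Lep and the adipocyte genes were named after their values were seen.

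Alternatives were a pseudocount of 0.1, no filter on low values, library medians set equal, only the groups compared, the replicate number as a block, 16 livers without the third Con and AOS livers, the cut-offs of the study (adjusted p up to 0.001 with a change of 1 or more, in either direction, on the log2 scale), and each liver left out. Those for Foxo1 and Foxo3 against Con were added after seeing the data. The replicate numbers did not pair the livers.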

Additional observations from a re-analysis of the deposited data

Results flagged for a closer look

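The effect of AOS on the high-fat diet minus its effect on the regular diet, on the log2 scale, was tested as an interaction in limma over 18 livers, and 11 of 147 tested genes of the lists had an adjusted p under 0.05, beside 0.504% of all genes, and none of the 11 was among the 9 genes followed here. In the FOXO and fasting targets, Cdkn1a had a difference between diets of -2.74 (-3.06 on the high-fat and -0.32 on the regular diet) and Gadd45a of 1.10 (1.51 and 0.41). In the leptin receptor pathway, Stat5b had -0.69 (-0.43 on the high-fat and 0.26 on the regular diet). Of the clock genes, Dbp had 5.45, Ciart 3.26, Per3 2.48 and Tef 2.12, and Arntl had -2.70, Npas2 -1.81, Nfil3 -1.68 and Clock -1.16. The adjusted p of these genes ran from 5.11e-05 for Ciart to 0.0261 for Gadd45a. Over 16 livers, without the third Con and AOS livers, Gadd45a and Stat5b lost their calls. In that setting 0 FOXO and fasting targets were higher and 1 was lower, and 0 genes of the leptin receptor pathway were called. Of the clock genes, 3 repressors and outputs were higher and 3 genes of the opposite phase were lower. Of all genes, 6 were higher and 9 lower. Groups of 3 livers were too small for a search for single outlying samples.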

How the results depend on the processing

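Of 1096 combinations of a named gene's difference and an alternative, 1001 kept the direction and the side of the threshold. Of the others, 39 lost a call, 12 gained a call, 44 changed direction without a call, and 0 reversed a call. Differences not called in either fit are among the 1001, so this count does not measure how well the calls held. Of the 8 tested genes, 2 were called in A10-FMT against HFD with library medians set equal, and 0 to 2 with single livers left out (0 with all livers). In HFD+AOS against HFD the 1 call became 0 without the low-value filter, with 16 livers, with only the groups compared and at the cut-offs of the study, and 0 to 2 with single livers left out. Between diets, 2 calls became 1 with 16 livers, 0 at the cut-offs of the study and 1 to 3 with single livers left out. In AOS-linked against other high-fat livers, 3 calls became 1 without the filter, with 16 livers and with only the groups compared, 0 at the cut-offs of the study and 1 to 3 with single livers left out. The correlated pairs became 0 for deviations from the group means and 2 with library medians set equal. Fewer livers enter the 16-liver setting and more genes are tested without the filter. Why the counts changed was not tested. With the replicate block, 3 members were called in AOS-linked against other high-fat livers, 2 between diets and 1 in HFD+AOS against HFD, as without it; the replicate numbers share only a number, with correlations of -0.177 to 0.225 between same-numbered livers. Counts of all genes called moved more. With library medians set equal, those in A10-FMT against HFD went from 275 higher and 418 lower to 603 and 467, in A10-FMT against Con-FMT from 48 and 129 to 108 and 135, in HFD against Con from 31 and 9 to 24 and 23, in AOS against Con from 10 and 4 to 5 and 5, and in the effect of AOS on one diet minus the other from 15 and 38 to 31 and 34. With only the groups compared they were 39 and 54 in A10-FMT against HFD, 1 and 3 in A10-FMT against Con-FMT, 1 and 1 in HFD against Con, 25 and 16 in AOS against Con, 31 and 106 in the effect of AOS between diets, 475 and 562 in AOS-linked against other high-fat livers, and 241 and 227 in HFD+AOS against HFD (438 and 481 over all livers). With 16 livers they were 170 and 225 in A10-FMT against HFD, 21 and 61 in A10-FMT against Con-FMT, 0 in HFD against Con and in AOS against Con, 6 and 9 in the effect of AOS between diets, 431 and 635 in AOS-linked against other high-fat livers, 261 and 234 in HFD+AOS against HFD, and 279 and 187 between diets (752 and 603 over all livers). Without the filter they were 30 and 70 in A10-FMT against Con-FMT and 17 and 9 in HFD against Con, and with the replicate block 2 and 3 in HFD against Con. With single livers left out, all genes called ranged from 0 (without the first Con liver) to 178 (without the second) in HFD against Con, 269 to 1217 (without the second and the third A10-FMT liver) in A10-FMT against HFD, 321 to 1281 (without the third and the first HFD liver) in HFD+AOS against HFD, 51 to 563 in A10-FMT against Con-FMT, 0 to 132 in AOS against Con, 1 to 13 in Con-FMT against HFD, 29 to 186 in the effect of AOS between diets, 924 to 2077 in AOS-linked against other high-fat livers and 851 to 1410 between diets. Depth is unknown, which limits low values such as those of Lepr most.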
